A study of Rattus norvegicus with 18 samples.

Results

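The lung transcripts of 9 genes that make, sense, and remove retinoic acid were examined in rats exposed to a multi-walled carbon nanotube (MWCNT). The genes were taken by symbol from the deposited tables, and all 9 were found among 22081 genes. They were the vitamin A transporter *Stra6*, the retinaldehyde dehydrogenases *Aldh1a1*, *Aldh1a2*, and *Aldh1a3*, the retinoic acid hydroxylase *Cyp26b1*, the retinoic acid receptors *Rara*, *Rarb*, and *Rarg*, and the retinoid X receptor *Rxra*. RNA-seq was carried out on 18 male F344 rats, an inbred strain, 3 control and 3 MWCNT-treated at each of 3 time points named Years 0.5, 1, and 2, at weeks 26, 52, and 104 of the experiment. From 9 weeks of age, the MWCNT-treated rats had 0.5 mg/kg of MWNT-7, a long and rigid MWCNT, instilled into the trachea every 4 weeks, and the control rats had the saline and Tween 80 vehicle on the same schedule. The RNA came from pieces of the accessory lobe without visible tumor nodules. The authors also checked stained sections of the rest of that lobe under the microscope for tumors. The pieces may still hold small lesions. The design is limited to 3 rats a group and to a single dose.

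Retinol is carried in the blood by a binding protein and enters cells through STRA6 or by other routes. Alcohol and short-chain dehydrogenases oxidize it to retinaldehyde, and the ALDH1A enzymes then make retinoic acid, which the CYP26 enzymes hydroxylate and so inactivate. Retinoic acid binds RAR proteins, which pair with RXR proteins on repeated DNA half-sites and switch target genes. In the lung, retinoic acid is known for its part in branching of the airways, in formation of alveoli, and in keeping the airway lining from turning squamous.

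In MWCNT-treated rats, the transcripts of most of these genes were lower than in time-matched control rats, and *Rarb* at Year 2 showed the largest fall of the 9. A false discovery rate (FDR, the p adjusted over all tested genes) below 0.05 was reached by 5 of 9 genes at Year 0.5, by 6 at Year 1, and by 8 at Year 2. All of them were lower in MWCNT-treated rats except *Rxra*, which was higher at Year 2 and whose rise did not pass the test when library size alone was used for scaling (log2 fold change 0.06, FDR = 0.489). Over all tested genes, 18.6% passed on the lower side at Year 0.5, 19.6% at Year 1, and 24% at Year 2. On the higher side, 25.2% passed at Year 2. The median log2 fold change of the 9 genes was -0.35, -0.46, and -0.70 at Years 0.5, 1, and 2, beside -0.02, 0.00, and -0.01 over all tested genes. Differentially expressed genes (DEGs) were those that also had a log2 fold change beyond 1 in size. None of the 9 was a DEG at Year 0.5 or Year 1, and 3 were at Year 2, *Aldh1a1*, *Cyp26b1*, and *Rarb*, all lower, against 3.03%, 4.09%, and 8.22% of tested genes that were DEGs on the lower side. *Aldh1a1* was close to the limit and no DEG without control replicate 1 (-0.91) or MWCNT replicate 1 (-0.97) of Year 2. These are bulk samples, in which fewer cells of a type and less RNA per cell cannot be told apart.

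**Figure D1:**
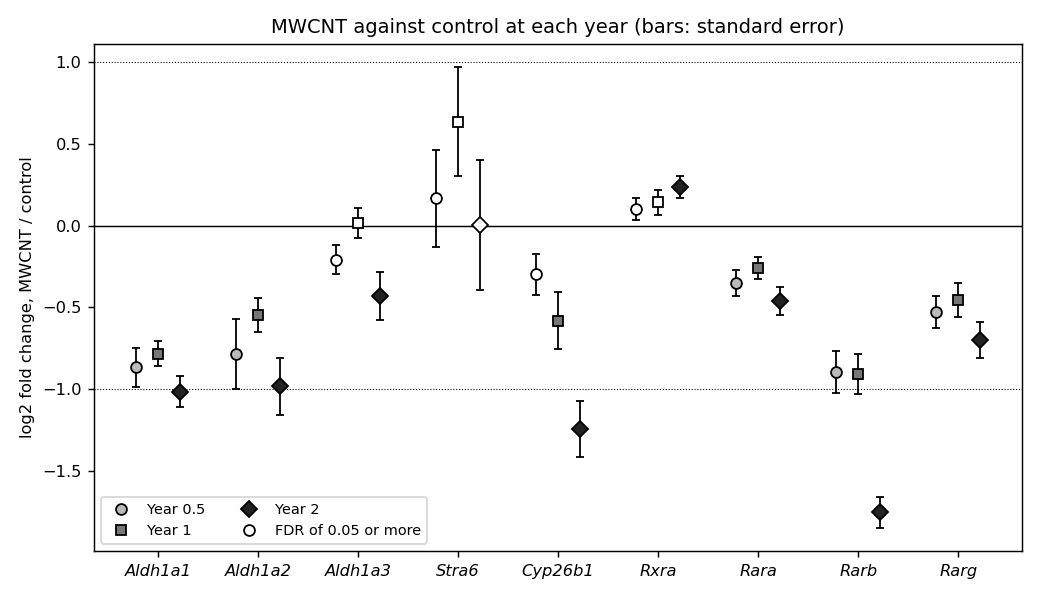
Log2 fold change of MWCNT-treated against control rats for the 9 genes at Year 0.5 (circles), Year 1 (squares), and Year 2 (diamonds), with standard errors as bars, filled symbols for an FDR below 0.05, and dotted lines at the DEG limits of 1 and -1. *Rarb* at Year 2 lay lowest, at -1.75, and *Rxra* lay slightly above 0 at each year, a side it did not keep at Year 0.5 with library size alone (-0.0024).

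Rat by rat, the groups were compared in CPM, the read counts scaled to library size with TMM factors. The 3 MWCNT-treated rats lay entirely below the 3 control rats for 5 genes at Year 0.5, 6 at Year 1, and 6 at Year 2, where 25.5%, 26.9%, and 28.9% of all tested genes did so. *Aldh1a1*, *Aldh1a2*, *Rara*, *Rarb*, and *Rarg* did so at all 3 years, as did 15.4% of genes tested at all 3, and these 5 also passed the test on the lower side at all 3 years, as did 12.2% of genes. For *Aldh1a1*, *Rara*, *Rarb*, and *Rarg*, the highest of all 9 MWCNT-treated rats was below the lowest of all 9 control rats, as it was for 10.3% of genes. *Rxra* lay entirely above at each year and *Stra6* at Year 1, where 26.2%, 28%, and 30.9% of tested genes did at Years 0.5, 1, and 2. *Aldh1a3* overlapped at every year. The same comparison in the deposited TPM, which carry no TMM factors, put treated rats entirely below control rats for 7 of the genes at each year, beside 40.7%, 46.8%, and 45.7% of tested genes. The difference from CPM was that *Aldh1a3* at every year and *Cyp26b1* at Year 0.5 lay entirely below as well, while *Rxra* and *Stra6* overlapped at every year.

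**Figure D2:**
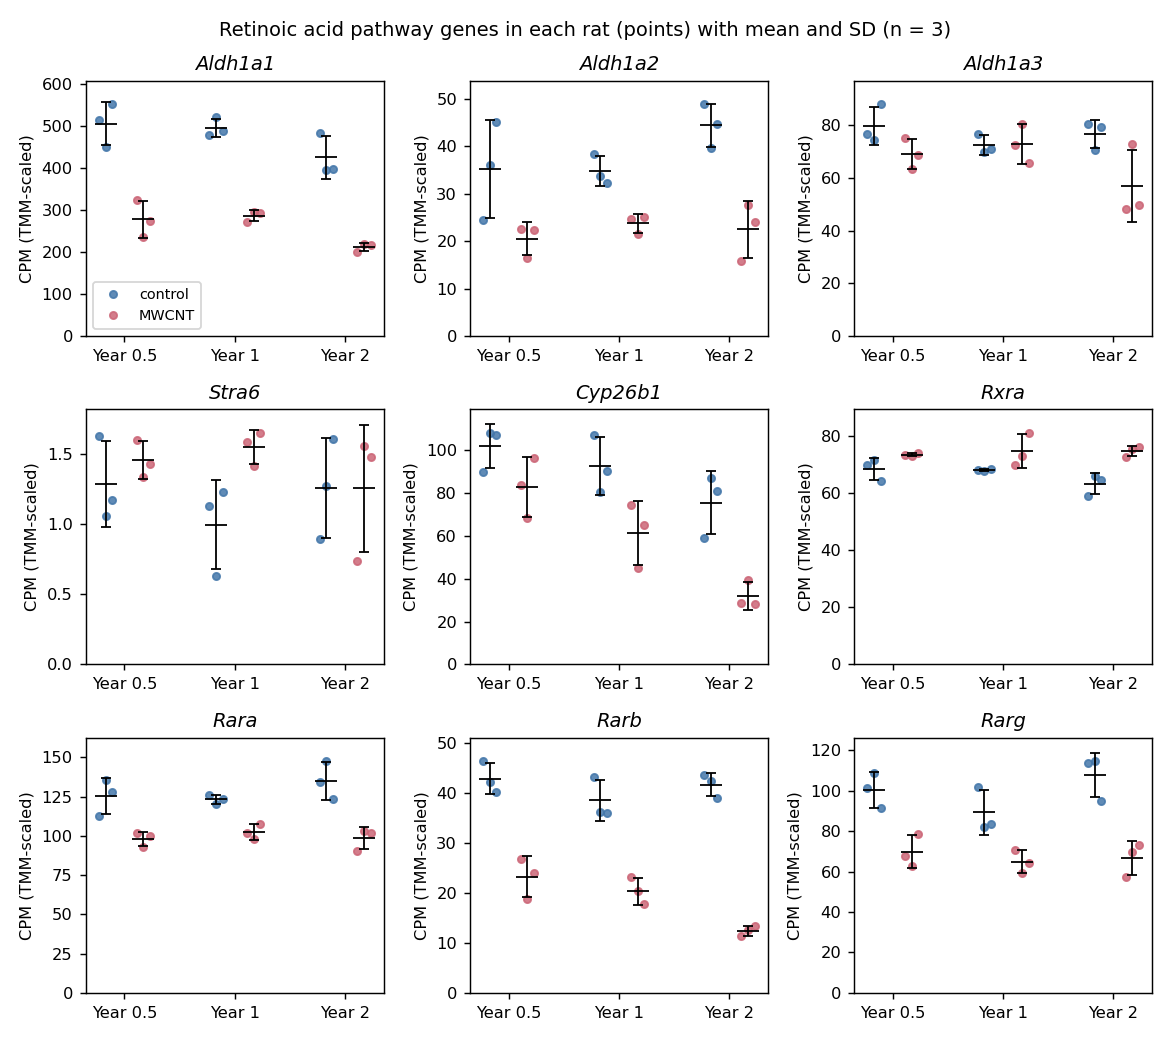
CPM (TMM-scaled, linear axis from 0) of each of the 9 genes in control rats (blue) and MWCNT-treated rats (red) at Years 0.5, 1, and 2. Points are single rats and bars are the mean and SD of 3 rats, and for *Rarb* all 9 red points, at most 26.8, lie below all 9 blue points, at least 36.0.

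Levels between genes were compared in TPM, which are scaled for gene length as well as for the library. In the 9 control rats, *Aldh1a1* was the most abundant of the genes, at a mean of 447 TPM (range 375 to 521), and no other gene reached its range. *Rara* at 76.6 TPM and *Rxra* at 69.3 TPM came next, with ranges that overlapped, and the lowest *Rxra* value of 58.6 TPM was just above the highest *Rarg* value of 58.0 TPM. *Rarg* at 49.5 TPM, *Aldh1a3* at 46.5 TPM, *Cyp26b1* at 40.8 TPM, *Aldh1a2* at 34.9 TPM, and *Rarb* at 27.4 TPM followed, and each overlapped its neighbor in that order. *Stra6* was last at 0.89 TPM. In MWCNT-treated rats, the place of *Rxra* in that order differed, since its 62.4 to 74.5 TPM lay above the 44.8 to 57.0 TPM of *Rara*. The mean of *Aldh1a3* (35.3 TPM) was also above that of *Rarg* (29.3 TPM), with ranges that overlapped. No gene was at 0 counts in any rat. The entries of the 9 genes overlapped no other gene entry in the deposited annotation.

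*Stra6* had few reads, with 10 to 28 counts per rat. Its CPM ranged from 0.63 to 1.63 in control rats and from 0.74 to 1.65 in MWCNT-treated rats. Treated and control rats differed by 0.17 (FDR = 0.685), 0.63 (FDR = 0.158), and 0.00 (FDR = 0.994) on the log2 scale at the 3 years, so no difference was detectable at this depth.

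*Aldh1a1*, which oxidizes retinaldehyde and other aldehydes and is abundant in the airway lining, was lower at each year. At Year 0.5, its level was 515, 452, and 553 CPM in control rats and 325, 236, and 274 CPM in MWCNT-treated rats. At Year 1, it was 479, 521, and 489 CPM in control rats and 272, 296, and 293 CPM in MWCNT-treated rats. At Year 2, it was 485, 396, and 397 CPM in control rats and 200.1, 219, and 217 CPM in MWCNT-treated rats. The groups were apart at every year, and the 3 lowest rats of all 18 were those treated with MWCNT at Year 2, an order not counted over all tested genes. The log2 fold change was -0.87 (SE 0.12, FDR = 0.000653) at Year 0.5, -0.78 (SE 0.08, FDR = 8.89e-05) at Year 1, and -1.01 (SE 0.10, FDR = 3.41e-05) at Year 2. The gene spans chr1:238222521-238264330 on the forward strand of Rnor_6.0. Its close paralog *Aldh1a7*, named here because reads of near-identical stretches could be assigned to either gene, had 5 to 35 counts per rat against 2714 to 9131 for *Aldh1a1*. The log2 fold change of *Aldh1a7* at Year 2 was -1.49 (SE 0.36, FDR = 0.00818). It passed the filter on low counts there through the control rats, with 23 to 31 counts against 7 to 13 in MWCNT-treated rats. Its call at Year 0.5 (-1.46, FDR = 0.0308) was lost in 5 of the 6 sets that left out 1 rat, and it did not pass at Year 1 (-0.96, FDR = 0.123).

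*Aldh1a2*, the main retinoic acid synthase of the embryo and known in mesothelial and other mesenchymal cells, was lower at each year as well. Control rats at Year 2 had 48.9, 39.7, and 44.7 CPM, and MWCNT-treated rats had 15.9, 27.6, and 24.0 CPM. At Year 0.5, control rats had 24.4, 36.1, and 45.2 CPM and MWCNT-treated rats had 22.7, 16.5, and 22.3 CPM, so that the lowest control rat, replicate 1, was close to the highest treated rat. Its log2 fold change was -0.78 (SE 0.21, FDR = 0.0183) at Year 0.5, -0.55 (SE 0.10, FDR = 0.00290) at Year 1, and -0.98 (SE 0.18, FDR = 0.00155) at Year 2. The call at Year 0.5 was lost without control replicate 3 (-0.56, FDR = 0.0515) or MWCNT replicate 2 (-0.63, FDR = 0.0720). The 8 marker genes of mesothelium, a lining in which *Aldh1a2* is well known, included 0, 0, and 3 lower genes and 1, 3, and 2 higher genes at Years 0.5, 1, and 2. Their summed level was 415 to 636 TPM in control rats and 367 to 491 TPM in MWCNT-treated rats. The 8 alveolar fibroblast markers, also mesenchymal, included 7, 5, and 7 lower genes and 1, 0, and 1 higher genes. Over all tested genes, 18.6%, 19.6%, and 24% were lower and 20.2%, 21.6%, and 25.2% were higher. The part of either list in the result was not tested.

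*Aldh1a3*, the third of these dehydrogenases, overlapped in CPM between treated and control rats at every year and was lower in treated rats by the test at Year 2. Its CPM lay between 69.8 and 87.9 in the 9 control rats and between 48.3 and 80.4 in the 9 MWCNT-treated rats. On the log2 scale, the difference between treated and control rats was -0.21 (SE 0.09, FDR = 0.0950) at Year 0.5, 0.02 (SE 0.09, FDR = 0.902) at Year 1, and -0.43 (SE 0.15, FDR = 0.0367) at Year 2. The difference at Year 0.5 passed the test with library size alone (FDR = 0.0238) and with limma on TPM (FDR = 0.0221). The call at Year 2 was lost without control replicate 1 (FDR = 0.102) or 3 (FDR = 0.0820), without MWCNT replicate 1 (FDR = 0.124) or 3 (FDR = 0.122), and with the replicate number as a block (-0.45, FDR = 0.0543).

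Within the sum of the 3 dehydrogenase transcripts in TPM, *Aldh1a1* made up 82.0% ± 1.18 (SD, n = 3) in control rats and 78.4% ± 3.29 (SD, n = 3) in MWCNT-treated rats at Year 2. The share of *Aldh1a3* was 8.47% to 9.07% in control rats and 12.4% to 14.1% in MWCNT-treated rats at Year 0.5, 7.58% to 8.81% and 11.8% to 14.2% at Year 1, and 8.93% to 10.5% and 11.9% to 16.1% at Year 2. The *Aldh1a3* shares of the groups did not overlap at any year, and no test was run on them. The mean TPM of *Aldh1a3* itself was lower in MWCNT-treated than in control rats (38.1 against 48.5, 38.3 against 44.7, and 29.7 against 46.4 at the 3 years). With TMM scaling, its difference did not pass the test at Year 0.5 (-0.21, FDR = 0.0950) or Year 1 (0.02, FDR = 0.902). The summed level of the family at Year 2 was 482 ± 36.4 TPM (SD, n = 3) in control rats and 217 ± 22.8 TPM (SD, n = 3) in MWCNT-treated rats. Both the means and the sums in TPM carry no TMM factors, and so they include the shift of library composition.

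**Figure D3:**
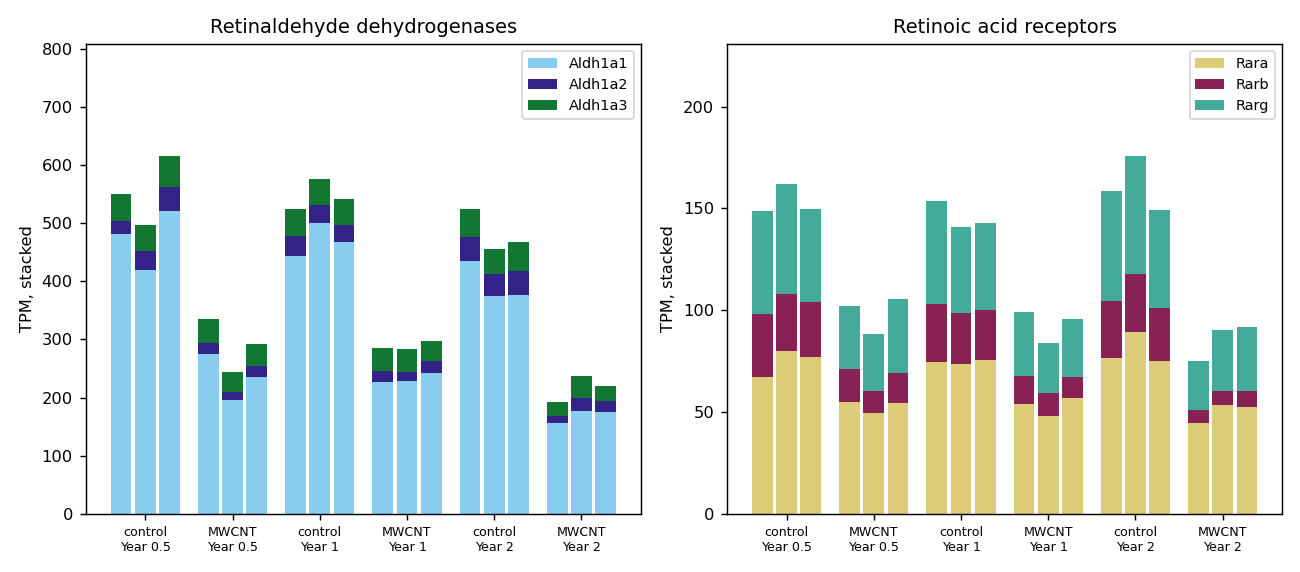
Stacked TPM (linear axis from 0) of the 3 retinaldehyde dehydrogenases (left) and the 3 retinoic acid receptors (right), 1 bar per rat, in control and MWCNT-treated rats by year. *Aldh1a1* fills most of every bar on the left, and on the right the *Rarb* share is smallest in the MWCNT-treated rats of Year 2, at 8.25% of the receptor sum on average.

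*Cyp26b1*, the hydroxylase that clears retinoic acid, had its lowest values at Year 2 in MWCNT-treated rats. At Year 0.5, its level was 89.8, 108, and 107 CPM in control rats and 83.5, 68.3, and 96.3 CPM in MWCNT-treated rats, and the groups overlapped. At Year 1, it was 107, 80.1, and 90.0 CPM in control rats and 74.2, 44.8, and 65.1 CPM in MWCNT-treated rats. At Year 2, it was 58.7, 86.7, and 80.6 CPM in control rats and 28.5, 39.5, and 28.0 CPM in MWCNT-treated rats. The groups were apart at the later years. The log2 fold change was -0.30 (SE 0.12, FDR = 0.0887) at Year 0.5, -0.58 (SE 0.17, FDR = 0.0256) at Year 1, and -1.24 (SE 0.17, FDR = 0.000332) at Year 2. At Year 0.5 the gene passed the test with library size alone (FDR = 0.0341), with limma on TPM (FDR = 0.0332), and without MWCNT replicate 3 (-0.41, FDR = 0.0303), and at Year 1 it did not without control replicate 1 (-0.47, FDR = 0.0804) or 3 (-0.60, FDR = 0.0597). The gene spans chr4:116261796-116278615 on the reverse strand of Rnor_6.0.

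The receptors moved unequally. *Rarb*, the retinoic acid receptor beta, is itself a classical target of retinoic acid, switched through a repeated half-site near its start, and is often silenced in lung tumors. Its level at Year 0.5 was 46.3, 42.0, and 40.1 CPM in control rats and 26.8, 18.7, and 24.0 CPM in MWCNT-treated rats. At Year 1 it was 43.2, 36.2, and 36.0 CPM in control rats and 23.1, 20.3, and 17.7 CPM in MWCNT-treated rats. At Year 2 it was 43.5, 42.4, and 39.0 CPM in control rats and 11.4, 12.6, and 13.3 CPM in MWCNT-treated rats. Control rats kept close to each other over the 3 years, and the 3 MWCNT-treated rats of Year 2 lay below every other rat. How many of all tested genes had that order was not counted. Its log2 fold change was -0.89 (SE 0.13, FDR = 0.000770) at Year 0.5, -0.91 (SE 0.12, FDR = 0.000531) at Year 1, and -1.75 (SE 0.10, FDR = 1.86e-06) at Year 2. With each rat of Year 2 left out in turn, the Year 2 value stayed between -1.80 and -1.69. The gene spans chr15:10120206-10262599 on the forward strand of Rnor_6.0.

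The repeat named above is shown because it is where RAR-RXR pairs are known to bind at *Rarb*. The promoter windows of RefSeq on the GRCr8 assembly, from 250 bases before to 50 bases after each annotated start, were searched on both strands for direct repeats of the half-sites AGGTCA and AGTTCA as well as GGGTCA and GGTTCA, in any combination, with 5 bases between them, the spacing known for retinoic acid response elements. Such a repeat was in 128 of 33469 windows (0.382%). All 9 genes had a window, and of these the window of *Rarb* alone held a match. Of the 50 other retinoid pathway genes listed below, 33 had a window, and that of *Cyp26a1*, another hydroxylase, held a match. Both matches are written 5′ to 3′ along the gene, with the half-sites in capitals and 6 bases on either side.
Rarb: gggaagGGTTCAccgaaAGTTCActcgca
Cyp26a1: taaagaTGAACTttgggTGAACTaatttg
The *Rarb* stretch lies at chr15:11336410-11336438 of GRCr8, with its first half-site beginning at base 25 after the start, and the *Cyp26a1* stretch lies at chr1:244883724-244883752 of GRCr8, before the start, with the half-sites on the opposite strand. Repeats spaced by 2 bases were in 0.17% of windows and those spaced by 1 base in 0.233%, and none was in a window of these genes. A match describes letters in a window and was not measured as binding here.

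*Rarg*, the gamma receptor, which is prominent in skin epithelium, and *Rara*, the broadly expressed alpha receptor, were lower at each year by smaller log2 fold changes. *Rarg* at Year 2 was 114, 115, and 95.0 CPM in control rats and 57.1, 69.6, and 73.1 CPM in MWCNT-treated rats. *Rara* at Year 2 was 134, 148, and 124 CPM in control rats and 90.3, 103, and 102 CPM in MWCNT-treated rats. In both genes, the groups were apart at Year 2 and at the earlier years. The log2 fold change of *Rarg* was -0.53 (SE 0.10, FDR = 0.00290) at Year 0.5, -0.46 (SE 0.10, FDR = 0.00826) at Year 1, and -0.70 (SE 0.11, FDR = 0.000651) at Year 2. That of *Rara* was -0.35 (SE 0.08, FDR = 0.00737) at Year 0.5, -0.26 (SE 0.07, FDR = 0.0156) at Year 1, and -0.46 (SE 0.09, FDR = 0.00189) at Year 2. The call of *Rara* at Year 1 was lost without control replicate 3 (-0.26, FDR = 0.0622).

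Because TPM shares within the family do not depend on the library scaling, they show the unequal change of the receptors. *Rarb* made up 18.6% ± 1.87 (SD, n = 3) of the receptor sum in control rats and 14.1% ± 1.66 (SD, n = 3) in MWCNT-treated rats at Year 0.5. The shares were 17.8% ± 0.716 and 12.7% ± 1.57 (SD, n = 3) at Year 1, and 17.1% ± 0.755 and 8.25% ± 0.216 (SD, n = 3) at Year 2. The groups did not overlap at any year. At Year 2, the share of *Rara* was 49.7% ± 1.27 in control rats and 58.7% ± 1.30 in MWCNT-treated rats (SD, n = 3), while that of *Rarg* was 33.1% in both groups. These shares are a description without a test.

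*Rxra*, the retinoid X receptor alpha, which pairs with RARs and with many other nuclear receptors, did not share the fall. At Year 2, it was 59.0, 66.0, and 64.6 CPM in control rats and 72.7, 75.4, and 76.0 CPM in MWCNT-treated rats, and the treated rats were above each control rat in CPM. On the log2 scale, the difference between treated and control rats was 0.10 (SE 0.06, FDR = 0.247) at Year 0.5, 0.14 (SE 0.08, FDR = 0.171) at Year 1, and 0.24 (SE 0.07, FDR = 0.0194) at Year 2. With library size alone, which moves the median of all genes by -0.10, -0.13, and -0.17 on the log2 scale at the 3 years, it was -0.0024 at Year 0.5. The call at Year 2 was also lost without MWCNT replicate 2 (0.23, FDR = 0.0530) or 3 (0.23, FDR = 0.0562).

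With all 18 rats in one model, the mean MWCNT effect over the years passed the test for 8 of the 9 genes, where 66.1% of 14843 tested genes passed in either direction. The mean log2 effect was -1.18 for *Rarb*, -0.89 for *Aldh1a1*, -0.77 for *Aldh1a2*, -0.71 for *Cyp26b1*, -0.56 for *Rarg*, -0.36 for *Rara*, and -0.21 for *Aldh1a3*. It was 0.16 for *Rxra* (FDR = 0.00113), which was 0.02 with library size alone (FDR = 0.603). *Stra6* did not pass, at 0.27 (FDR = 0.232).

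Time courses were compared in the same model. In control rats, none of the 9 genes passed the test between any pair of years, where 0%, 7.93%, and 6.65% of tested genes did for Year 1 against Year 0.5, Year 2 against Year 1, and Year 2 against Year 0.5. In MWCNT-treated rats, none passed for Year 1 against Year 0.5 (background 0.101%), and *Aldh1a1*, *Cyp26b1*, and *Rarb* fell from Year 1 to Year 2 (3.26% of tested genes fell) and from Year 0.5 to Year 2 (6.87%). From Year 0.5 to Year 2, *Cyp26b1* fell by 1.37 on the log2 scale (FDR = 0.000236), *Rarb* by 0.89 (FDR = 0.000294), and *Aldh1a1* by 0.39 (FDR = 0.0221). From Year 1 to Year 2, the log2 differences were -0.94 for *Cyp26b1* (FDR = 0.0093), -0.71 for *Rarb* (FDR = 0.00437), and -0.44 for *Aldh1a1* (FDR = 0.0223). The control rats from Year 0.5 to Year 2 had log2 differences of -0.43 for *Cyp26b1* (FDR = 0.167) and -0.25 for *Aldh1a1* (FDR = 0.161), which did not pass. Without MWCNT Year 2 replicate 1, *Rarb* alone passed from Year 1 to Year 2, with *Cyp26b1* at an FDR of 0.0517 and *Aldh1a1* at 0.0959. *Cyp26b1* from Year 1 to Year 2 was also lost without MWCNT Year 1 replicate 1 (-0.78, FDR = 0.0563), and *Aldh1a1* without MWCNT Year 1 replicate 3 (FDR = 0.0792) or MWCNT Year 2 replicate 2 (FDR = 0.0563). *Aldh1a1* from Year 0.5 to Year 2 was lost without MWCNT Year 0.5 replicate 1 (-0.26, FDR = 0.137) or MWCNT Year 2 replicate 1 (-0.35, FDR = 0.0910).

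Whether the MWCNT effect itself differed between years was tested by the interaction of treatment and time. Of the 9 genes, *Rarb* passed (FDR = 0.0400), as did 0.667% of tested genes. Its effect at Year 2 was more negative than at Year 0.5 by -0.85 on the log2 scale (SE 0.18, FDR = 0.0269) and than at Year 1 by -0.83 (SE 0.18, FDR = 0.0499), where 0.451% and 0.162% of tested genes passed on the negative side. For *Cyp26b1*, the corresponding difference between Year 2 and Year 0.5 was -0.94 (SE 0.27, FDR = 0.0973), and it passed with DESeq2 (FDR = 0.0199) and without MWCNT Year 1 replicate 2 (FDR = 0.0480). The interaction call of *Rarb* was narrow. It held in 5 of the 18 sets that left out 1 rat, those without control Year 1 replicate 1, control Year 2 replicate 3, or MWCNT Year 0.5 replicate 2, Year 1 replicate 2, or Year 1 replicate 3, and was lost in the other 13 and with the replicate number as a block. In all 18 of these sets, the difference between Year 2 and Year 0.5 stayed between -0.99 and -0.74 and that between Year 2 and Year 1 between -0.92 and -0.73. The former did not pass in 8 of the 18 sets (FDR up to 0.0833) and the latter in 13 (FDR up to 0.145), nor did the latter pass without a filter on low counts (FDR = 0.0537) or with library size alone (FDR = 0.05004).

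The rest of the pathway changed in both directions, as tested genes in general did. Of 50 other retinoid genes listed by role, 45 were found by symbol among the deposited genes. *Crabp2*, *Rdh16*, *Adh1*, *Adh4*, and *Hoxa5* were not found. At Years 0.5, 1, and 2, 35, 35, and 36 genes had enough counts to be tested. Of these, 12, 10, and 11 fell and 5, 3, and 6 rose, and the medians of the list were -0.04, -0.14, and -0.02. The 6 that rose at Year 2 included *Aldh8a1*, whose limit is given below. Without MWCNT replicate 2 of Year 0.5, 11 genes rather than 17 passed at that year. Over all tested genes, 18.6%, 19.6%, and 24% fell and 20.2%, 21.6%, and 25.2% rose at Years 0.5, 1, and 2.

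Among carriers and storage genes, 2 fell and 1 rose of 5 tested at Year 2, when 24% of all tested genes fell and 25.2% rose. *Fabp5*, which carries retinoic acid and fatty acids in cells and is abundant in macrophages, rose by 1.80, 2.01, and 2.22 on the log2 scale at the 3 years (FDR = 3.62e-06, 7.69e-06, and 2.37e-07). Its CPM at Year 2 was 90.3, 84.1, and 77.9 in control rats and 402, 395, and 386 in MWCNT-treated rats. *Lrat*, which esterifies retinol for storage, fell by 1.05, 0.96, and 1.65 on the log2 scale (FDR = 0.00106, 0.000133, and 5.28e-05). *Rbp4*, the retinol carrier of the blood, had a log2 fold change of -1.08 (SE 0.24, FDR = 0.00465) at Year 2.

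Among the redox enzymes of retinol and retinaldehyde, 1 fell and 3 rose of 10 tested at Year 2, beside 24% and 25.2% of all tested genes. The 3 that rose included *Aldh8a1*, which entered the test through the MWCNT-treated rats alone. *Dhrs9*, a dehydrogenase that can oxidize retinol, rose by 1.92, 2.70, and 2.42 at the 3 years (FDR = 0.00137, 1.84e-05, and 1.7e-06). Its CPM at Year 2 was 17.4, 18.1, and 23.4 in control rats and 111, 91.4, and 114 in MWCNT-treated rats, clear of each other. *Adh7*, an alcohol dehydrogenase of epithelia that uses retinol, had a log2 fold change of -1.69 (SE 0.37, FDR = 0.00479) at Year 2. Its earlier values were -0.53 (FDR = 0.257) at Year 0.5 and -0.98 (FDR = 0.00952) at Year 1. *Aldh8a1*, which oxidizes 9-cis-retinaldehyde in vitro, had few counts, 1 to 7 in the control rats and 12 to 17 in the MWCNT-treated rats of Year 2. It passed the filter on low counts through the MWCNT-treated rats alone, and it was not tested at Years 0.5 and 1. Its log2 fold change at Year 2 was 2.04 (SE 0.60, FDR = 0.0191), which cannot be taken as support for a rise, given that filter. The call was lost without control Year 2 replicate 1 (1.81, FDR = 0.0725) or 3 (1.65, FDR = 0.0538) or MWCNT Year 2 replicate 3 (1.89, FDR = 0.0677). *Rdh10*, the main retinol dehydrogenase of the embryo, did not pass at any year, with log2 fold changes of 0.16, 0.20, and 0.12 (FDR = 0.241, 0.163, and 0.330).

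Of the other CYP26 hydroxylases, *Cyp26a1*, named for its promoter match, was at 3 to 41 counts per rat and *Cyp26c1* at 0 to 4, too few to test. At Year 0.5, *Cyp26a1* had 38, 41, and 23 counts in control rats and 21, 12, and 8 in MWCNT-treated rats. Its log2 fold changes were -1.40 (SE 0.43, FDR = 0.0310) at Year 0.5, -0.10 (SE 0.61, FDR = 0.908) at Year 1, and -1.21 (SE 0.47, FDR = 0.0598) at Year 2. The call at Year 0.5 was lost without control replicate 1 (FDR = 0.0862) or 2 (FDR = 0.102) and without MWCNT replicate 2 (FDR = 0.123) or 3 (FDR = 0.0988).

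Of 10 other retinoid X receptors and coregulators, 4 fell and 1 rose at Year 2, beside 24% and 25.2% of all tested genes. *Rxrg*, the retinoid X receptor gamma, had a log2 fold change of -1.48 (SE 0.26, FDR = 0.00150) at Year 2. Its values at Years 0.5 and 1 were -0.95 (FDR = 0.0127) and -0.89 (FDR = 0.0249). The Year 1 call was lost in 4 of the 6 sets that left out 1 rat. *Nr2f1* and *Nr2f2*, the COUP-TF receptors that bind similar repeats, had -1.16 (SE 0.13, FDR = 0.000116) and -0.50 (SE 0.09, FDR = 0.00128) at Year 2. Both also passed at the earlier years. The call of *Nr2f1* at Year 0.5 (FDR = 0.0157) was lost in 3 of 6 such sets, and that of *Nr2f2* at Year 1 (FDR = 0.0168) in 1. Of 10 tested genes known to respond to retinoic acid, 4 fell and 1 rose at Year 2, beside the same shares of all tested genes. *Rarres1*, first found as a gene induced by a retinoid, rose by 1.34, 1.87, and 2.18 at the 3 years (FDR = 0.00141, 0.000828, and 1.71e-05), with 8.87, 7.63, and 11.4 CPM in control rats and 46.6, 47.1, and 32.9 CPM in MWCNT-treated rats at Year 2. *Hoxa4*, a homeobox gene, fell by 1.37, 1.12, and 1.61 on the log2 scale (FDR = 0.00287, 0.0027, and 0.000195), and *Meis2*, a homeobox cofactor, had -1.32 (SE 0.11, FDR = 1.58e-05) at Year 2. Earlier values of *Meis2* were -0.93 (FDR = 0.00298) at Year 0.5 and -0.56 (FDR = 0.0226) at Year 1. The Year 1 call of *Meis2* was lost in 3 of the 6 sets that left out 1 rat. *Tgm2*, a transglutaminase also known to respond to retinoic acid, did not pass at any year, with log2 fold changes of -0.04, 0.13, and 0.01 (FDR = 0.619, 0.221, and 0.963).

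**Figure D4:**
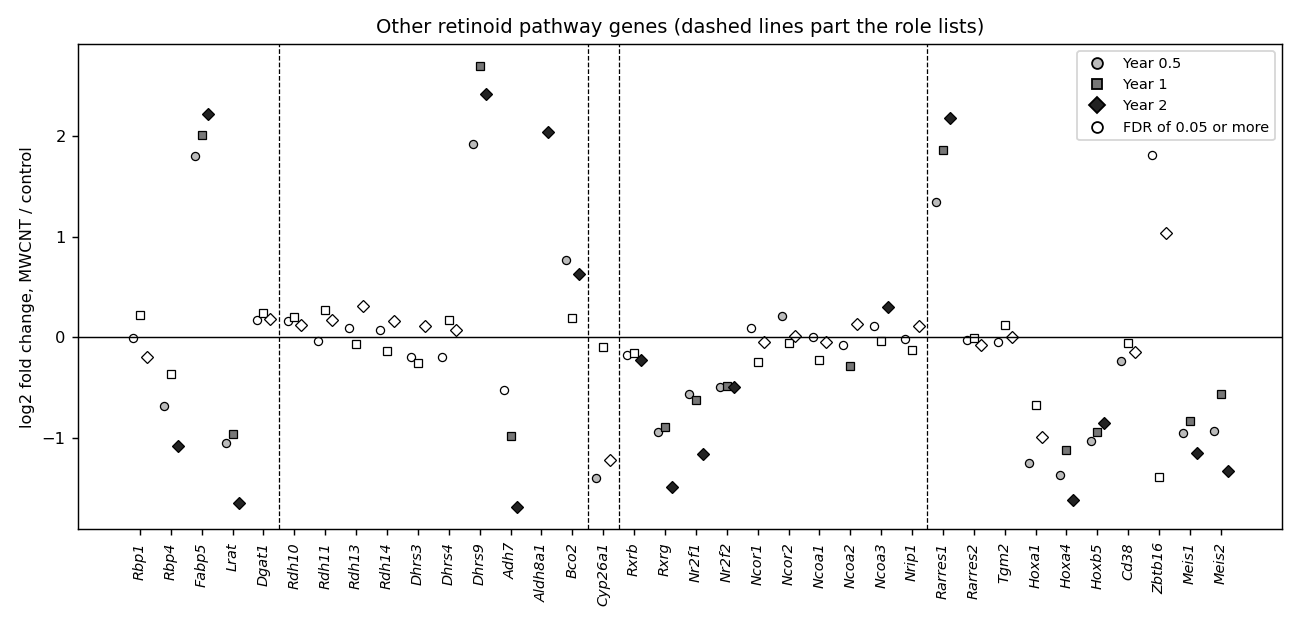
Log2 fold change of MWCNT-treated against control rats for the tested retinoid genes beyond the 9, at Year 0.5 (circles), Year 1 (squares), and Year 2 (diamonds), filled where the FDR was below 0.05. Dashed lines part carriers and storage, redox enzymes, hydroxylases, receptors and coregulators, and responsive genes. *Fabp5*, *Dhrs9*, and *Rarres1* lie highest and *Lrat*, *Adh7*, and *Hoxa4* among the lowest at Year 2.

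The genes whose pattern over the 18 rats was most like that of a DEG of the 9 were sought among 14842 genes, by the root-mean-square difference of centred log2 CPM. For *Rarb* they were *Kank4* (0.13), *Kcnh2* (0.13), and *Raver2* (0.14). For *Aldh1a1* they were *Cfap70* (0.11), *Gstm7* (0.11), and *Nudt4* (0.13). For *Cyp26b1* they were *Csmd2* (0.21), *Prex2* (0.25), and *Frem2* (0.25), a looser likeness. *Raver2*, which encodes an RNA-binding protein, was 76.0, 92.5, and 72.2 CPM in control rats and 24.0, 27.0, and 28.3 CPM in MWCNT-treated rats at Year 2.

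Marker genes of several cell types moved with treatment in the same samples. Beside them, 18.6%, 19.6%, and 24% of all tested genes were lower and 20.2%, 21.6%, and 25.2% were higher at Years 0.5, 1, and 2. Of 7 endothelial markers, 7, 6, and 6 were lower at Years 0.5, 1, and 2, and their summed level was 2224 to 2820 TPM in control rats and 761 to 1547 TPM in MWCNT-treated rats. Of 8 alveolar fibroblast markers, 7, 5, and 7 were lower and 1, 0, and 1 were higher, with sums of 844 to 1102 TPM and 479 to 735 TPM. Of 6 tested airway epithelial markers, 3, 5, and 4 were lower, and sums over 7 markers, tested or not, were 19160.4 to 33981 TPM and 10728 to 16018 TPM. All 8 macrophage markers were higher at each year, with sums of 267 to 363 TPM and 979 to 1753 TPM. Alveolar epithelial markers were mixed, with 4 higher and 4 lower of 8 at Year 2, and sums of 26414 to 33905 TPM and 39471 to 47821 TPM. The median log2 fold change of this list at Year 2 was -0.15, and a sum is weighted toward the most abundant genes. Of 7 tested heart muscle markers, 6, 1, and 1 were lower, and sums over 8 markers, tested or not, were 75.0 to 792 TPM and 16.4 to 238 TPM. No marker was listed at 0 throughout a group except the heart gene *Nppa*. TPM sums of all lists carry the shift of library composition, and the part of these cell types in the values of the 9 genes was not tested. The range of total counts was 13297643 to 17868851 in control rats and 14661589 to 21130757 in MWCNT-treated rats.

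**Figure D5:**
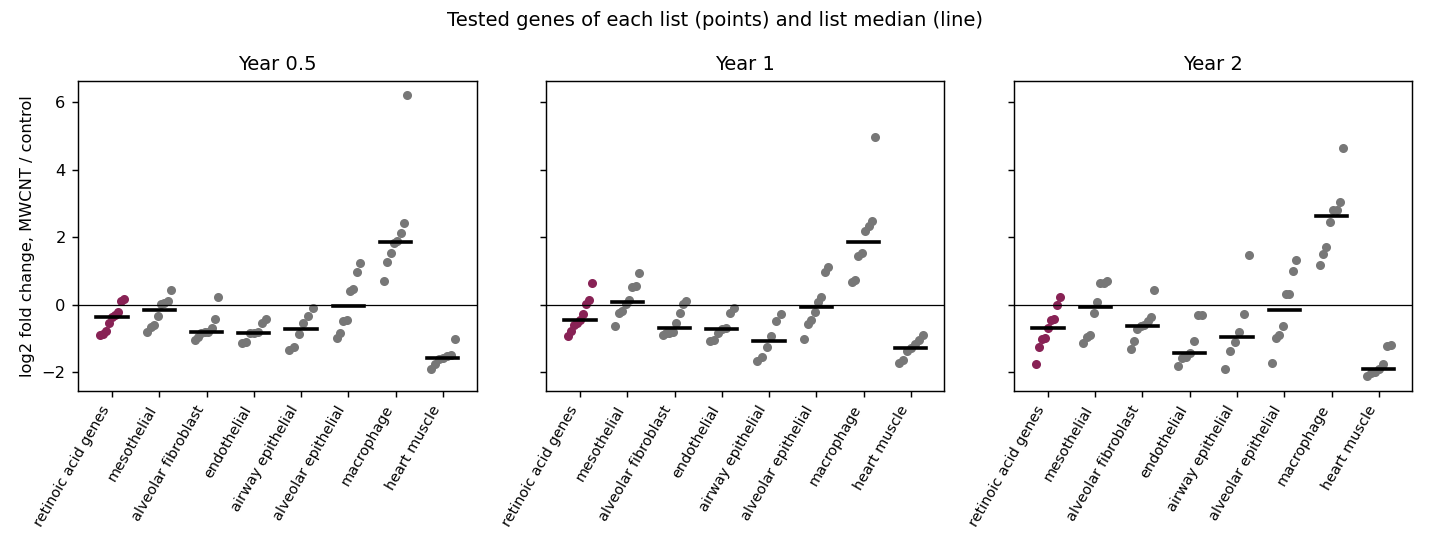
Log2 fold change of MWCNT-treated against control rats for the 9 retinoic acid genes (purple) and for the tested marker genes of 7 cell types (grey) at each year, 1 point per gene, with the median of each list as a line. At Year 2 the median of the 9 genes was -0.70. Marker medians were -1.91 for heart muscle, -1.41 for endothelium, -0.95 for airway epithelium, and -0.61 for alveolar fibroblasts. They were -0.15 for alveolar epithelium, -0.08 for mesothelium, and 2.63 for macrophages.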

How the data were processed

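RNA-seq was measured in the lungs of 18 rats, grouped by the sample labels. The authors prepared libraries with an NEBNext kit, mapped the reads with CLC Genomics Workbench (build Rnor_6.0 per the submitters' processing notes), and deposited whole-number counts per gene and TPM. How reads of near-identical genes were assigned is not given in the sources used here. The deposited RPKM, CPM, and comparison columns (fold changes and p-values) were not used.

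Counts were tested per year in R 4.3.3 with edgeR 4.0.16, by filterByExpr (minimum count 10, minimum total 15), TMM factors, and the quasi-likelihood test with Benjamini-Hochberg FDR over all tested genes. DEGs had an FDR below 0.05 and a log2 fold change beyond 1 in size. Time contrasts and the interaction used one model of 18 rats. The scripts recovered known changes in simulated data. Figures and TPM summaries were made in Python 3.11.15.

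The 9 genes and all lists were chosen with earlier results of these data known. Named besides the 9 were up to 3 genes per pathway list with the largest change at Year 2 among those with an FDR below 0.05, and the 3 nearest genes of each DEG of the 9. *Aldh1a7*, *Cyp26a1*, *Cyp26c1*, *Rdh10*, and *Tgm2* fall outside this rule and were named after their values were seen. Rats of a year that share a replicate number did not deviate together from their groups (mean r 0.016, -0.15 to 0.10, over 9 pairs, across genes), and the labels give no shared litter or batch, so rats were not paired. No 2 rats of a group were within sampling noise of each other (chi-square per degree of freedom of 6.24 or more). Alternatives were no filter, 10 counts in every rat, library size alone, DESeq2 1.42.0, limma 3.58.1 on log2(TPM + 1), one model of 18 rats for the yearly tests, the replicate block, and leaving out each rat. TPM in place of CPM for the comparison rat by rat was added after the data were seen.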

Additional observations from a re-analysis of the deposited data

Results flagged for a closer look

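The MWCNT effect on *Rarb* differed between the years by a test of the difference itself, the interaction of treatment and time (FDR = 0.0400). The log2 fold change was -0.89 at Year 0.5, -0.91 at Year 1, and -1.75 at Year 2. All 3 MWCNT-treated rats of Year 2 were below all 6 of the earlier years, an order not counted over all tested genes. The call was lost in 13 of the 18 sets that left out 1 rat and with the replicate number as a block.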

How the results depend on the processing

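Of the 19 calls at an FDR below 0.05 over the 3 years, none reversed, and 233 of the 247 values under the alternatives kept the call. The 14 that lost it belong to *Aldh1a2*, *Aldh1a3*, *Cyp26b1*, *Rara*, and *Rxra* and are given above, except *Rxra* at Year 2 with limma (0.02, FDR = 0.847). *Rarb*, *Aldh1a1*, and *Rarg* kept every yearly call against control rats at an FDR below 0.05, which does not cover the time contrasts and the interaction. The count of the 9 genes below that FDR at Year 0.5 went from 5 to 7 with library size alone and with limma, through *Aldh1a3* and *Cyp26b1*. The DEGs of the 9 genes went from 0 to 1 with limma at Year 0.5, and from 0 to 1 with library size alone and to 2 with limma at Year 1. With 1 rat left out, they ranged from 0 to 1 at Year 0.5 (1 without MWCNT replicate 1), from 0 to 1 at Year 1 (1 without MWCNT replicate 1), and from 2 to 4 at Year 2 (2 where *Aldh1a1* was lost and 4 where *Aldh1a2* was gained). The other pathway genes with an FDR below 0.05 went from 13 to 20 with limma at Year 1, and ranged from 11 to 15 at Year 0.5 with 1 rat left out (11 without MWCNT replicate 2). Genes passing from Year 1 to Year 2 in MWCNT-treated rats ranged from 1 to 3. Genes passing the interaction went from 1 to 2 with DESeq2 and ranged from 0 to 1 with 1 rat left out.

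Values near 0 changed sign without passing a test, except where given. *Rxra* was -0.0024 with library size alone and -0.041 with limma at Year 0.5, and -0.10 with limma at Year 1. *Aldh1a3* at Year 1 was -0.12 with library size alone and -0.22 with limma (FDR = 0.0477), and ranged from -0.070 to 0.084 with 1 rat left out. *Stra6* at Year 2 was -0.16 with library size alone and -0.11 with limma, and ranged from -0.19 to 0.27 with 1 rat left out. *Cyp26a1* at Year 1 ranged from -0.91 to 0.37.

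With the replicate number as a block, which the labels do not support as a pairing, 5 of 87 values changed. Genes passing the interaction went from 1 to 0, *Stra6* at Year 2 turned to -0.021, and *Aldh1a3* at Year 2, *Rbp4* at Year 0.5 (FDR = 0.0600), and *Aldh1a7* at Year 0.5 (FDR = 0.0542) lost their calls. The causes of these changes were not tested. *Stra6*, *Cyp26a1*, and *Aldh8a1* rest on few counts, at most 41 per rat.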
